A study of Mus musculus with 6 samples.

Results

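The IFIT family holds 6 genes in the mouse table, namely Ifit1, Ifit2, Ifit3, Ifit3b, Ifit1bl1 and Ifit1bl2. Members were taken by gene symbol, and each symbol named a single Ensembl identifier among the 53700 genes listed. Expression was measured by RNA-seq in SL4, a luciferase-expressing mouse CRC cell line, in 3 libraries of cells without SEMA6A overexpression (pLV-Control) and 3 of cells with stable lentiviral overexpression of SEMA6A (pLV-SEMA6A). The cells of both groups carry luciferase, no treatment is given for either group, and the labels do not say whether the control cells carry an empty vector. A single stable pLV-SEMA6A line is described, and nothing says that the 3 libraries of a group came from separate cultures. The p-values set the difference between groups against the spread between libraries, which may be technical. Whether a difference comes from SEMA6A or from the derivation of that line cannot be told apart. Against the colorectal label, the defining epithelial markers Epcam, Cdx1 and Cdx2 were listed at 0 in all 6 libraries.

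IFIT proteins are built from tetratricopeptide repeats and lie in the cytosol, where they are among the products that interferon raises most. IFIT1 binds mRNA whose cap lacks 2′-O methylation and keeps it from being translated, which is how it marks viral RNA, and IFIT proteins also bind eIF3. Transcription of the family is driven by ISGF3, a complex that holds STAT2 and IRF9, and by IRF proteins downstream of RNA sensors. Both bind the interferon-stimulated response element in the promoter.

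All 6 genes lie on chromosome 19 within 99.3 kb, in the order Ifit2, Ifit3, Ifit1bl1, Ifit3b, Ifit1bl2 and Ifit1 in GENCODE M21. Ifit1bl1 and Ifit1bl2 are on the minus strand and the others on the plus strand. All are annotated as protein coding, with 2 or 3 exons and coding sequences of 1209 to 1410 bases. The promoters are shown because 4 members were called in the same direction, and because those of 5 of the 6 hold a letter match to the interferon-stimulated response element. RefSeq windows on GRCm38.p6, from 250 bases before to 50 bases after the start site, matched all 6 members. The submitters' notes name another build, mm39, so these positions were not used with the deposited values. The response element was searched as GAAANNGAAA, or TTTCNNTTTC on the other strand, and is given in capitals, each window being read along its gene. The windows are chr19:34640639-34640938 (plus strand) for Ifit1, chr19:34583279-34583578 (plus) for Ifit3, chr19:34607707-34608006 (plus) for Ifit3b and chr19:34550444-34550743 (plus) for the first start site of Ifit2.
Ifit1: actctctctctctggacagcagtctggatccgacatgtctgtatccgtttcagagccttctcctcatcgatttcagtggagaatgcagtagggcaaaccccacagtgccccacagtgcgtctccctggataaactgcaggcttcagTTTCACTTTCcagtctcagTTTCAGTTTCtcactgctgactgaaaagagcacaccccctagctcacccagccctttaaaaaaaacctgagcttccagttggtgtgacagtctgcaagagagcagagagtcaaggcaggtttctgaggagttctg
Ifit3: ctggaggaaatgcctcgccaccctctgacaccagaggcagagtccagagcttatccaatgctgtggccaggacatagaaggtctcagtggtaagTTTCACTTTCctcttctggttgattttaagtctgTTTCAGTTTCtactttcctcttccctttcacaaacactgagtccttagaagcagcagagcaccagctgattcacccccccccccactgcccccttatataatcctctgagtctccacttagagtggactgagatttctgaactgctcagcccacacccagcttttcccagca
Ifit3b: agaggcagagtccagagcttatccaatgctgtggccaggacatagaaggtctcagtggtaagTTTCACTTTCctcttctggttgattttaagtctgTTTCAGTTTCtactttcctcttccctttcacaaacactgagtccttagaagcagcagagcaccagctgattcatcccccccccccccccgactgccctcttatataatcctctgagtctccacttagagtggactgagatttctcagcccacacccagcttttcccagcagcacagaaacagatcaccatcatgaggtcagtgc
Ifit2: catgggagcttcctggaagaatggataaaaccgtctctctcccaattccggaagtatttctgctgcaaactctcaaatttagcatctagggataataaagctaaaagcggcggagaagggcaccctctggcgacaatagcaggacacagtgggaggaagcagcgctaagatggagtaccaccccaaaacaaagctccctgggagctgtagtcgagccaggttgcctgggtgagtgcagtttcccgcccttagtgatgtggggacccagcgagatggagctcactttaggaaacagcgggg

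Ifit1, Ifit3 and Ifit3b carry the same pair of elements, TTTCACTTTC followed by TTTCAGTTTC. They began 104 and 85 bases upstream of the start site in Ifit1, 156 and 122 bases upstream in Ifit3, and 188 and 154 bases upstream in Ifit3b. The Ifit3 and Ifit3b windows were 94.2% identical over 274 aligned columns. The Ifit1bl2 gene starts 146 bases from the Ifit1 start site and runs away from it, so that its first window shares 245 bases and the same pair of elements with that of Ifit1. Ifit1bl1 has a single TTTCATTTTC in the windows of both its start sites. The window of the other Ifit1bl2 start site does not hold the letters searched, and neither does any window of Ifit2. Neither a match nor its absence says anything about binding of a factor. Over all 32851 RefSeq windows of the same length, 3.44% hold the element. Counted by gene, 3.99% of 27025 genes have it in any of their windows. A second element, the gamma-activated site, was searched as TTCNNNGAA and was found among the members only in the first Ifit2 window, while 8.3% of all windows hold it.

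Reads of members with similar sequence can be hard to tell apart, so coding sequences and 31-base stretches of whole transcripts were compared. Ifit3 and Ifit3b were identical at 99.1% of aligned columns, Ifit1bl1 and Ifit1bl2 at 87.5%, and Ifit1 at 74.0% with Ifit1bl1 and 73.8% with Ifit1bl2. The remaining pairs lay between 51.9% and 56.5%. Of the 31-base stretches of the Ifit3 transcript, 61.8% also occur in Ifit3b, and 54.1% of those of Ifit3b occur in Ifit3, so the split of reads between them is uncertain. The share that occurs in any other gene was 10.8% for Ifit1, 0% for Ifit2, 19.3% for Ifit1bl1 and 17.3% for Ifit1bl2.

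**Figure D1:**
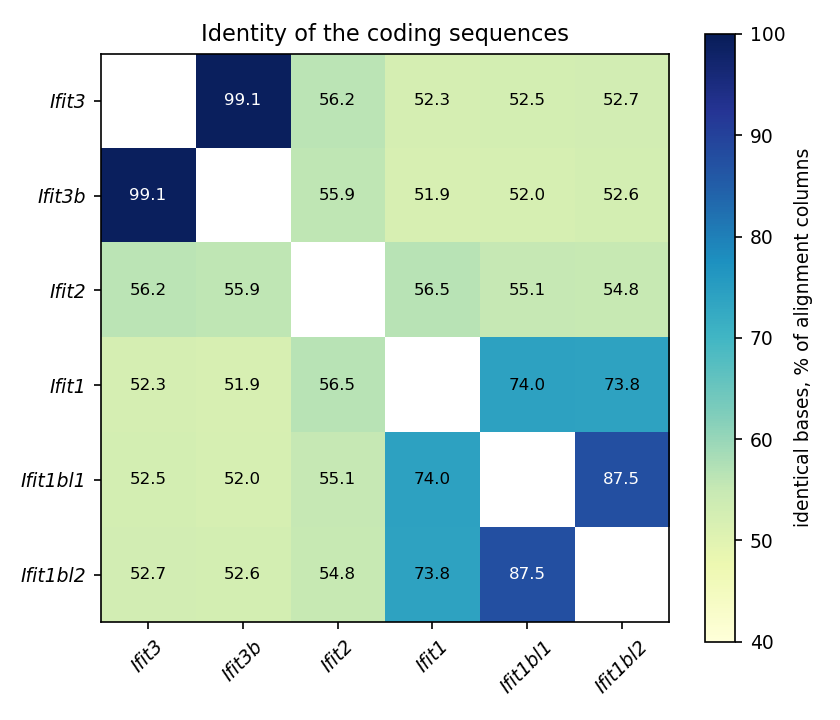
Pairwise identity of the coding sequences of the 6 IFIT genes, as the percentage of alignment columns with identical bases in GENCODE M21, with darker cells for higher identity. Ifit3 with Ifit3b (99.1%) and Ifit1bl1 with Ifit1bl2 (87.5%) stand out, and Ifit1 is closest to the latter pair.

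Every IFIT gene with more than trace RNA was lower in pLV-SEMA6A cells. Values are TPM, a unit that corrects for transcript length, so levels of different genes can be compared, and libraries are given in the order of their replicate numbers. RNA from fewer cells that express a gene and less RNA per cell cannot be told apart in bulk libraries. The control libraries held 111, 122 and 118 TPM of Ifit3, against 19.7, 19.4 and 20.4 TPM with SEMA6A. Ifit3b, its near copy, had 26.0, 26.1 and 25.8 TPM in control cells against 5.59, 5.33 and 5.97 TPM in the SEMA6A line. In both genes the groups lay far apart, and the highest pLV-SEMA6A library reached 17.4% of the pLV-Control mean for Ifit3 and 23.0% for Ifit3b.

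Ifit1, the cap-binding member, had 61.7, 64.9 and 65.8 TPM in control cells against 24.7, 23.5 and 24.6 TPM in the SEMA6A line. Ifit2, which has been linked to restriction of viruses in the nervous system, had 19.2, 17.6 and 19.2 TPM against 9.64, 9.25 and 9.70 TPM. Neither gene overlapped between the groups. The mean fell to 37.8% of pLV-Control for Ifit1 and to 51.1% for Ifit2. The coefficient of variation within a group ranged from 0.657% to 5.72% over these 4 genes.

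Ifit1bl1 and Ifit1bl2 were at trace levels. Control cells held 0.29, 0.21 and 0.45 TPM of Ifit1bl2 and SEMA6A cells 0.02, 0.08 and 0.12 TPM, with no overlap. The share of genes this low that do not overlap was not computed. Ifit1bl1 was listed at 0, 0.09 and 0.06 TPM in control cells and 0, 0.34 and 0.06 TPM in SEMA6A cells, so that the groups overlapped. The deposited values have 2 decimals and TPM keeps no read number, so the depth behind these traces is unknown. Both genes were below the filter of a mean of 1 TPM. In a fit of all 24518 genes above 0 in any library, limma gave adjusted p = 0.0508 for Ifit1bl2 and adjusted p = 0.60 for Ifit1bl1.

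**Figure D2:**
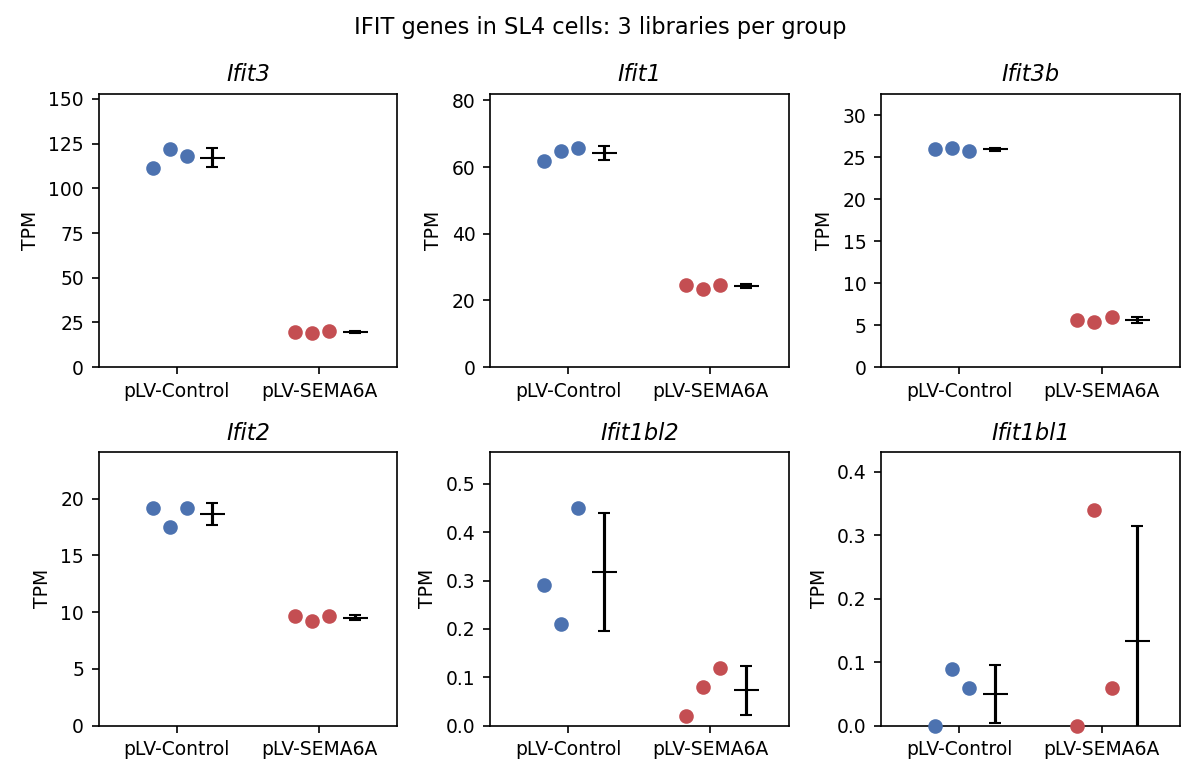
TPM of each IFIT gene in the 3 pLV-Control (blue) and 3 pLV-SEMA6A (red) libraries, with the mean and SD of each group in black and each panel on its own linear axis from 0, where the lower error bar of Ifit1bl1 is cut. For Ifit3, Ifit1, Ifit3b and Ifit2 all pLV-SEMA6A libraries lie below all pLV-Control libraries, while Ifit1bl2 and Ifit1bl1 stay at or under 0.45 TPM.

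The 4 genes that passed the filter were compared by limma on log2(TPM + 1), a scale that understates the change of low genes, with Benjamini-Hochberg adjustment over all 12510 genes tested. A gene was called when its adjusted p was below 0.05 and its log2 fold change lay beyond 0.5 in either direction. All 4 were called lower, against 10.8% of all genes tested. Ifit3 had a change of −2.50 in log2 TPM (standard error 0.04, adjusted p = 4.6e-07), and only 42 of the genes tested fell further. It was −2.03 for Ifit3b (standard error 0.06, adjusted p = 2.7e-06) and −1.37 for Ifit1 (standard error 0.04, adjusted p = 3.5e-06). Ifit2 fell by 0.90 on the same scale, the least of the 4 (standard error 0.06, adjusted p = 6.2e-05), and 538 genes, or 4.30%, fell further. The median over the 4 genes was −1.70, and over all genes tested −0.06. Ifit3, Ifit3b and Ifit1 also passed a minimum of 1 on the log2 scale, which 2.43% of all genes did downward, and without any minimum 28.2% of genes were called lower. Every pLV-SEMA6A library lay below every pLV-Control library in the 4 genes, as in 34.7% of all genes tested. Summing Ifit3 with Ifit3b, which does not depend on how reads were split between them, gave a mean ± SD of 143 ± 5.26 TPM for control and 25.4 ± 0.828 TPM for SEMA6A cells (n = 3 each) and a log2 fold change of −2.45.

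**Figure D3:**
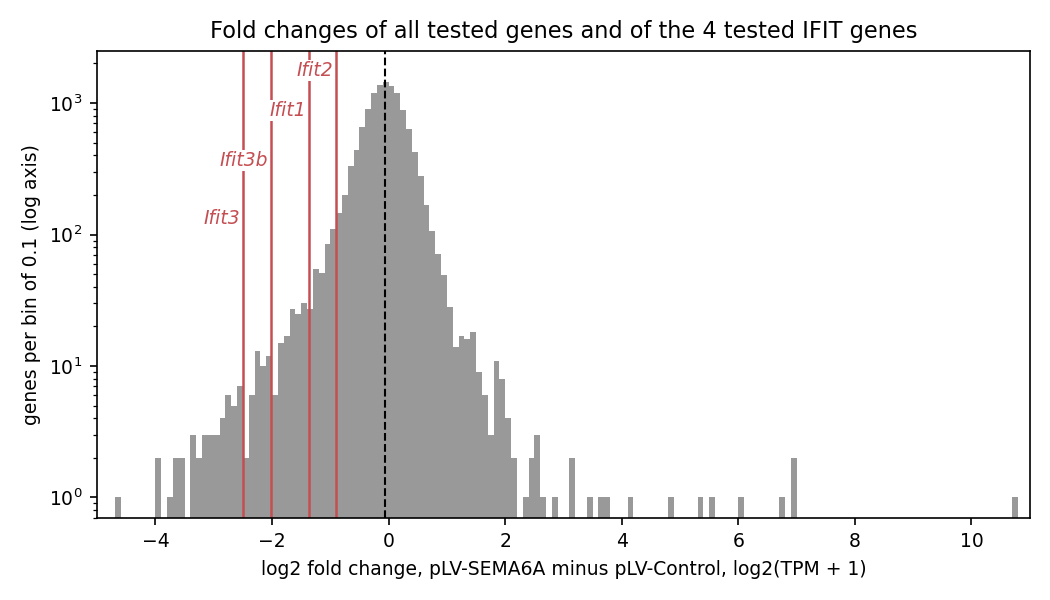
Number of genes per bin of 0.1 in log2 fold change (pLV-SEMA6A minus pLV-Control, on log2(TPM + 1), log vertical axis) for the 12510 genes tested, with the 4 tested IFIT genes as red lines and the median of all genes (−0.06) dashed. The IFIT genes lie between −2.50 for Ifit3 and −0.90 for Ifit2, all on the left of the bulk of genes.

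The scaling of the libraries changed the share of all genes called in each direction but not the IFIT calls. As deposited, 10.8% of genes were called lower and 5.12% higher. With each library centred on its median, which shifted the fold changes by 0.09, 7.68% were called lower and 8.01% higher, and the 4 IFIT genes were still called lower.

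The fall differed in size between the members, and the order of their levels changed with it. In pLV-Control, Ifit3 was highest, followed by Ifit1, Ifit3b and Ifit2, and in pLV-SEMA6A the order was Ifit1, Ifit3, Ifit2 and Ifit3b. The libraries of neighbours in these orders did not overlap in either group. Ratios within a library, which do not depend on its scaling, show the exchange of places. It rests, however, on the uncertain split of reads between Ifit3 and Ifit3b. Summed, Ifit3 and Ifit3b had 25.3, 24.7 and 26.3 TPM in the pLV-SEMA6A libraries, above Ifit1 in each (24.7, 23.5 and 24.6 TPM). Ifit1 stood at 0.533 to 0.556 times the TPM of Ifit3 in the pLV-Control libraries and at 1.21 to 1.25 times in the pLV-SEMA6A libraries. Ifit2 went from 0.672 to 0.744 times Ifit3b in pLV-Control to 1.62 to 1.74 times in pLV-SEMA6A. The ratio of Ifit1 to Ifit2, which share no stretch of 31 bases with each other or with Ifit3, was 3.22 to 3.70 in pLV-Control and 2.53 to 2.56 in pLV-SEMA6A. Within the near-identical pair, Ifit3 stood at 4.28 to 4.66 times Ifit3b in pLV-Control and at 3.41 to 3.63 times in pLV-SEMA6A, a shift that depends on the uncertain split of their reads.

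On the log2(TPM + 1) scale, the fold change of Ifit3 was larger than that of Ifit2 by 1.61, larger than that of Ifit1 by 1.14, and larger than that of Ifit3b by 0.48. Ifit3b fell more than Ifit2 by 1.13 and more than Ifit1 by 0.66, and Ifit1 fell more than Ifit2 by 0.47. The SD of the within-library differences was at most 0.13 in either group, and all 6 pairs of members had groups that did not overlap. These pairs come from the same 4 genes, and the share of other gene pairs without overlap was not computed. An exact permutation test (two-sided) of each pair gave p = 0.1, which is also its value after Benjamini-Hochberg adjustment over the 6 pairs and the smallest that 3 libraries against 3 can give, so no pair could pass a threshold of 0.05.

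The 6 genes summed to 226 ± 6.59 TPM (SD, n = 3) in control cells and to 59.5 ± 1.47 TPM (SD, n = 3) in SEMA6A cells, which is 26.3% of the former. The exact permutation test (two-sided) again gave p = 0.1. Ifit3 made up 51.8% ± 0.94 of this sum in pLV-Control and 33.3% ± 0.25 in pLV-SEMA6A (SD, n = 3 each). The share of Ifit1 went from 28.3% ± 0.27 to 40.8% ± 0.51 and that of Ifit2 from 8.25% ± 0.59 to 16.0% ± 0.11. Ifit3b moved least among the 4, from 11.5% ± 0.36 to 9.47% ± 0.32. Thus, with reads split as deposited, Ifit3 was the main IFIT transcript in control cells, and Ifit1 in SEMA6A-overexpressing cells. Counted together, Ifit3 and Ifit3b made up 63.2% ± 0.75 of the sum in pLV-Control and 42.8% ± 0.47 in pLV-SEMA6A, the latter beside 40.8% for Ifit1 alone.

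**Figure D4:**
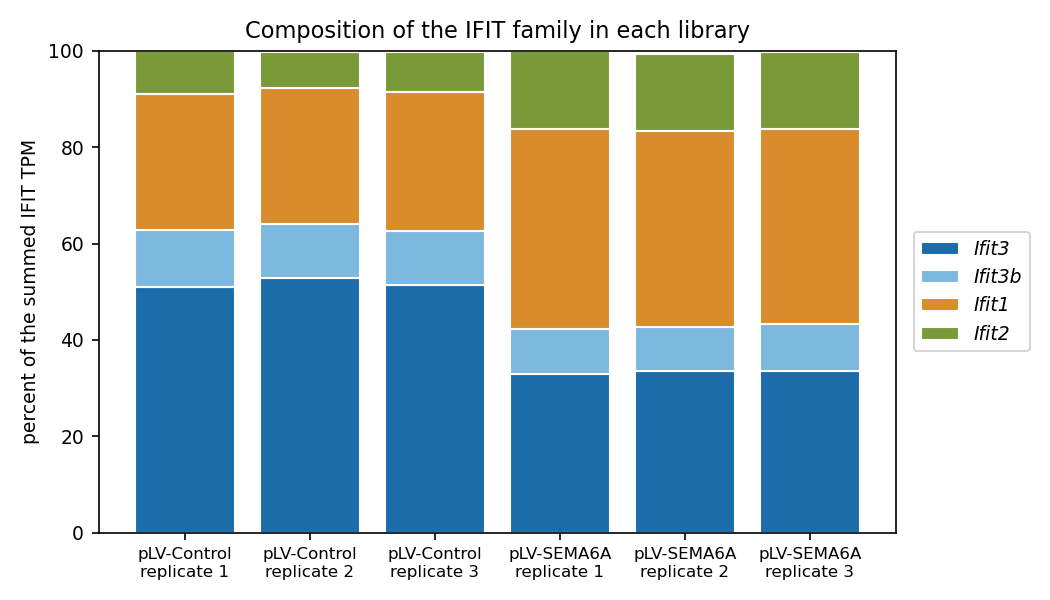
Stacked bars give the percentage of the summed IFIT TPM that each of 4 genes takes in each of the 6 libraries, with Ifit1bl1 and Ifit1bl2 too small to draw. Ifit3 (dark blue) takes 51.8% on average in pLV-Control and 33.3% in pLV-SEMA6A, while Ifit1 (orange) takes 28.3% and 40.8%.

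Genes that act before and beside the IFIT family were read from lists. These held interferon ligands, receptors, transcription factors, nucleic acid sensors, mRNA 5′ end enzymes, eIF3 subunits and neighbours on chromosome 19. Of the 50 list genes tested, 16 were called lower and 4 higher, where 10.8% of all genes tested were called lower and 5.12% higher. The counts of the single lists rest on few genes and are to be read against the same shares. No interferon ligand was tested. Of 21 ligands, 18 were listed at 0 in every library, and Ifnb1 was listed at 0, 0 and 0.12 TPM in control cells against 0.24, 0 and 0.25 TPM in SEMA6A cells. Ifne and Ifnz stayed under 1 TPM in every library.

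Among receptors and their kinases, 2 of 8 tested genes were called lower and none higher. These were Ifnar2, a chain of the type I interferon receptor, at −0.64 on the log2 scale, and the kinase Tyk2 at −0.88. The other receptor chain, Ifnar1, had a log2 fold change of −0.15 and Jak1 one of 0.19, both under the minimum. The median of the list was −0.20.

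Of 6 transcription factors, 5 were called lower, with a median log2 fold change of −1.42. Irf7, which amplifies interferon responses and is itself induced by them, had 212, 211 and 217 TPM in control cells against 25.2, 24.0 and 21.6 TPM in SEMA6A cells. On the log2 scale it changed by −3.13 ± 0.06 (standard error, limma adjusted p = 5.0e-07), which was larger than that of any IFIT gene. Stat2 and Irf9, which act within ISGF3, fell by 1.71 and 1.21 on the log2 scale. Irf5 and Irf1 were at −1.63 and −1.13. Irf3, which is present before any interferon signal and is activated by phosphorylation, averaged 39.7 ± 0.864 TPM in control cells and 32.0 ± 0.716 TPM in SEMA6A cells (SD, n = 3 each), and its log2 fold change of −0.30 was under the minimum.

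Of 9 cytosolic nucleic acid sensors and adaptors tested, 5 were called lower and none higher. The sensors Ddx58 (RIG-I), Ifih1 (MDA5) and Dhx58 (LGP2) were called lower at −1.53, −1.58 and −1.60, and Zbp1 and the kinase Ikbke at −2.06 and −1.0. The adaptor Mavs, which passes on the signal of RIG-I and MDA5, was not called at −0.41, and neither were Traf3 (−0.18), Tbk1 (−0.03) and Sting1 (0.03). The sign for Tbk1 turned when libraries were centred on their median.

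Enzymes that shape the 5′ end of mRNA set what IFIT1 can bind. Of 9 tested, 3 were called lower and none higher. Cmtr1, the methyltransferase that adds the 2′-O methyl group to the first base after the cap, averaged 75.7 ± 2.50 TPM in control cells and 46.0 ± 3.03 TPM in SEMA6A cells (SD, n = 3 each) without overlap, and changed by −0.71 ± 0.05 on the log2 scale (standard error, limma adjusted p = 0.00013). The decapping enzymes Dcp2 and Nudt16 were at −0.65 and −0.69. Rnmt, which methylates the cap itself, had a log2 fold change of 0.14, Cmtr2 one of 0.14, and Dusp11, which removes phosphates from RNA 5′ ends, one of 0.12.

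Of 14 eIF3 subunits tested, none was called lower and 3 were called higher, against 10.8% and 5.12% of all genes, namely Eif3b (0.64), Eif3j1 (0.99) and Eif3j2 (1.10). Eif3j1 and Eif3j2 are close copies, and their values are uncertain for that reason. Eif3e and Eif3c, the subunits known to contact IFIT proteins, were at 0.15 and 0.40, under the minimum. Eif3f (−0.44, limma adjusted p = 0.000216) and Eif3k (−0.30, limma adjusted p = 0.000216) were lower without overlap between the groups, but were also under the minimum. Eif3a, Eif3c (limma adjusted p = 3.46e-05), Eif3d, Eif3e, Eif3l and Eif3m were higher without overlap and likewise under the minimum. Of all genes tested, 34.7% were lower without overlap. The share that were higher without overlap was not computed, so these patterns are not read as a trait of the subunits. All 3 calls held when libraries were centred on their median.

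Of 4 neighbours tested, 1 was called higher and 1 lower. Acta2, smooth muscle actin, was called higher at 1.57. Both Acta2 and Kif20b lie farther from the family than Lipa, Ch25h, Slc16a12 and Pank1. Pank1, which lies beyond Ifit1, had a log2 fold change of −0.02. Its sign turned, as did that of Kif20b, with libraries centred on their median. Lipa, the protein-coding gene next to Ifit2, had 13.7, 14.7 and 14.2 TPM against 8.76, 9.77 and 10.7 TPM. Its log2 fold change of −0.50 was just past the minimum, and the call was lost with libraries centred on their median (−0.41), with quantile normalization (−0.38), without pLV-Control replicate 2 (−0.48) and without pLV-SEMA6A replicate 1 (−0.43). Slc16a12, the coding gene next to Ifit1, was at most at 0.09 TPM, and Ch25h at most at 0.10 TPM.

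**Figure D5:**
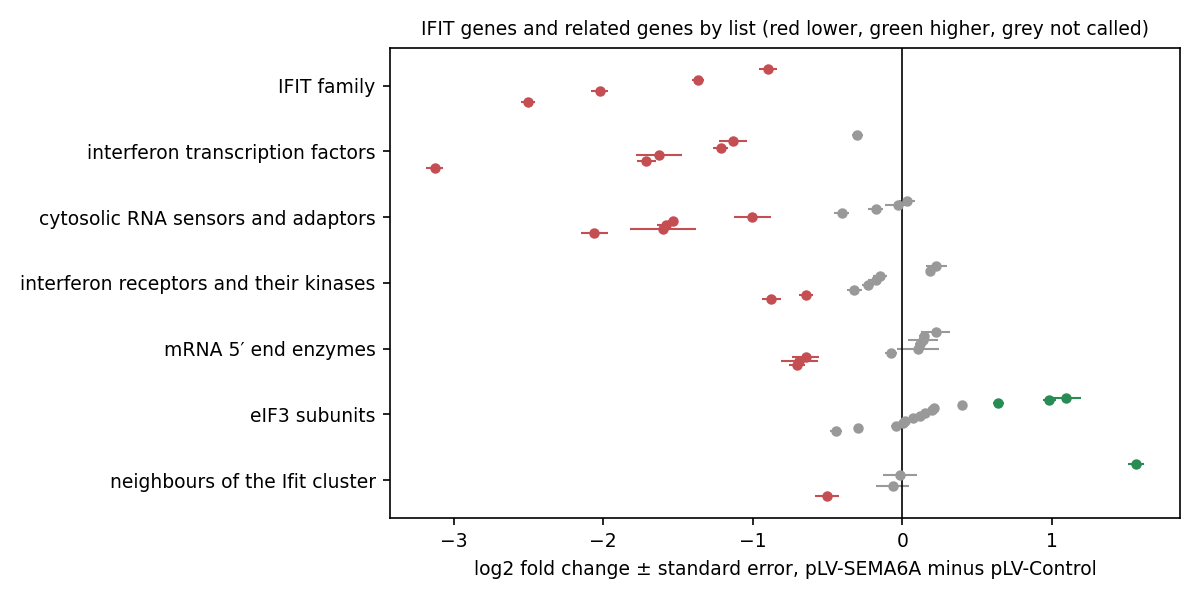
Each point is a tested gene, with its log2 fold change (pLV-SEMA6A minus pLV-Control) and standard error, in rows by list, red if called lower, green if called higher and grey if not called. The IFIT genes and most interferon transcription factors lie left of −0.5, whereas the eIF3 subunits lie from −0.44 to 1.10.

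The genes whose pattern over the 6 libraries was most like the summed IFIT TPM were found among the 8180 genes that averaged 10 TPM or more, by the root mean square difference of log2(TPM + 1) centred on the pLV-Control mean. They were Apol9a (0.056), Isg15 (0.057), Parp14 (0.088), Apol9b (0.089) and Nlrc5 (0.090). For comparison, the same difference was 0.088 for Ifit3b, 0.39 for Ifit1, 0.42 for Ifit3 and 0.72 for Ifit2, and the 5 genes were chosen for their small difference.

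The labels were checked on Sema6a, which was listed at 0 in the 3 pLV-Control libraries and at 98.7 to 118 TPM in the pLV-SEMA6A libraries. Of 12 markers of colon epithelium, 3 were listed at 0 in every library and the others reached at most 2.33 TPM. Beside Epcam, Cdx1 and Cdx2, given above, Cdh1 reached 0.03 TPM and Krt8 0.39 TPM, and only Lgals4 of 12 markers passed the filter, with a log2 fold change of −1.25. The summed level of the list was 2.11 to 2.96 TPM in pLV-Control and 0.68 to 1.6 TPM in pLV-SEMA6A. Leukocyte markers, which would come with interferon-responding immune cells, summed to 11.5 to 12.5 and 15.6 to 17.7 TPM, nearly all from Cd14 (log2 fold change 0.47, not called, but called higher with libraries centred on their median), and 5 of 11, with Cd3e, Itgam and Adgre1 among them, were at 0 throughout, while Ptprc reached 0.04 TPM. Endothelial markers summed to at most 0.56 TPM. Fibroblast markers summed to 126 to 143 and 184 to 190 TPM, mainly from Col3a1. Of 5 tested genes, 2 were called lower and 2 higher, and 1 lower call was lost with libraries centred on their median. Pdgfra, called lower, also passed the filter only through pLV-Control (mean 1.76 TPM, against 0.78 TPM in pLV-SEMA6A). The part of the fibroblast markers in the IFIT values was not tested.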

How the data were processed

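Poly-A mRNA of 3 pLV-Control and 3 pLV-SEMA6A libraries was captured, fragmented, reverse transcribed with random primers and sequenced on an Illumina platform. The authors deposited a single table with 1 column of values per library and 1 mean per group, which was not used. The unit is not named, and the values are read as TPM because each column sums to between 977400 and 986444. The submitters' processing notes name HISAT, Bowtie2, RSEM and the build mm39. The annotation is not given in the sources used here.

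TPM holds no read counts, so DESeq2, which the authors used, could not be run, and depth and detection limits are unknown. RSEM shares reads that match several genes between them, which bears on Ifit3 and Ifit3b. log2(TPM + 1) was fitted by limma 3.58.1 in R 4.3.3 with a trend and a term for group, over genes that averaged 1 TPM or more. Single values were compared by exact permutation tests in scipy 1.17.1. The limma fit was tested on simulated data.

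Named genes are the members, the called and defining genes of the lists, and the 5 genes nearest to the summed family. The members and lists were chosen with earlier results of these data known, and 2 list genes are not reported here. Coding sequences, gene order and 31-base stretches came from GENCODE M21 (GRCm38), matched by Ensembl identifier and aligned with Biopython 1.88. Alternatives were a pseudocount of 0.1, no filter, the replicate block, other scalings and minimum fold changes, summed near-identical genes and leaving out each library.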

Additional observations from a re-analysis of the deposited data

How the results depend on the processing

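The 4 tested IFIT genes were called lower in every one of the 11 fits with another pseudocount, filter, scaling, block or set of libraries, and 3 of them when a log2 fold change beyond 1 was required, where Ifit2 was lost. Their log2 fold changes, with the sum of Ifit3 and Ifit3b counted for both, ranged from −2.56 to −2.41 for Ifit3, −2.45 to −1.91 for Ifit3b, −1.40 to −1.27 for Ifit1 and −0.96 to −0.78 for Ifit2. With the replicate block 4 were called, with adjusted p from limma between 9.7e-05 and 0.0012. Deviations of same-numbered libraries correlated at −0.08 to −0.02, so no deviation shared by number was seen. This cannot show whether the libraries were prepared in pairs. The block changed no call on the members. The log2 ratio of the summed family TPM went from −1.93 to −1.83 when libraries were scaled to the same median.

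A pseudocount of 0.1 moved the differences that involve the low Ifit3b, to 0.79 against Ifit1, 1.23 against Ifit2 and −0.37 against Ifit3. Counting Ifit3 with Ifit3b moved the difference from Ifit1 to 1.08 and the change in share to −20.4 percentage points. These shifts follow from how the alternatives are built. Over the lists, 15 or 16 genes were called lower and 4 higher in the fits tried. The number of libraries, and depth that TPM does not show, limit what can be said of Ifit1bl1 and Ifit1bl2.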
